A study of Rattus norvegicus with 8 samples.

Results

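Calcineurin, its inhibitory calcipressins and its NFAT targets were examined in a fast leg muscle, the tibialis anterior, of hyperthyroid and control rats. The genes comprised the catalytic subunits Ppp3ca, Ppp3cb and Ppp3cc, the regulatory subunit Ppp3r1, the calcipressins Rcan1 and Rcan2, and the transcription factors Nfatc1 and Nfatc3. They were taken as every probe set whose only gene symbol in the platform annotation is one of these 8 names, which gave 16 of the 31099 probe sets on the array. Of the 16, 15 lay above a filter on low values, as did 18625 probe sets in all, and the other, 1377078_at of Ppp3cc, lay under it. The hyperthyroid group held 4 adult Sprague-Dawley rats, which weighed 200 ± 40 g at the start and received 25 µg of triiodothyronine (T3, the active thyroid hormone) per 100 g by intraperitoneal injection, repeated at intervals of 2 days over 6 weeks. Their muscles were taken 24 hours after the last dose. The control group held 4 untreated rats of the same strain, so T3 and the injections themselves cannot be told apart. Each group held 3 males and 1 female, each rat gave 1 Affymetrix array, and the labels do not say which array came from a female. Arrays are called by their numbers in the labels, 1, 2, 3 and 5 for hyperthyroid and 7, 8, 9 and 11 for control rats.

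Calcineurin is a phosphatase that calcium and calmodulin switch on. It consists of a catalytic A subunit, of which there are alpha (Ppp3ca), beta (Ppp3cb) and gamma (Ppp3cc) forms, and a calcium-binding B subunit (Ppp3r1), and it removes phosphate from NFAT proteins, which then enter the nucleus. In skeletal muscle the sustained calcium signal of slow motor nerves works through this pathway to maintain slow-fibre genes, whereas thyroid hormone excess is known for shifting muscle towards fast fibres. Calcipressins bind calcineurin and restrain it. Rcan1 is itself transcribed in response to calcineurin through NFAT sites in an internal promoter, as shown in human and mouse cells, and Rcan2 (synonym Zaki-4) was first described as a T3-responsive transcript of cultured human fibroblasts.

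Those roles make the promoters of both calcipressins of interest here. Promoter windows of 300 bases, from 250 before to 50 after the gene start in RefSeq (build GRCr8), were found for 5 of the 8 genes by gene identifier: Ppp3ca, Ppp3cb, Ppp3r1, Rcan1 and Rcan2. The windows of the calcipressins are shown 5′ to 3′ on the coding strand, with the NFAT core GGAAA, or TTTCC where it lies on the other strand, in capitals. The Rcan1 window is chr11:45118187-45118486 on the minus strand, and that of Rcan2 is chr9:24672140-24672439, also on the minus strand.
Rcan1: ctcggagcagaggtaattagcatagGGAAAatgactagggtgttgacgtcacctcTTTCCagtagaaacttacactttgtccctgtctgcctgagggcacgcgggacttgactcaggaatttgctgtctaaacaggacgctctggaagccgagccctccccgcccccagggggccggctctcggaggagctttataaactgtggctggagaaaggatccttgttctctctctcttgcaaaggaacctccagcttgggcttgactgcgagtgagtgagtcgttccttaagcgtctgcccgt
Rcan2: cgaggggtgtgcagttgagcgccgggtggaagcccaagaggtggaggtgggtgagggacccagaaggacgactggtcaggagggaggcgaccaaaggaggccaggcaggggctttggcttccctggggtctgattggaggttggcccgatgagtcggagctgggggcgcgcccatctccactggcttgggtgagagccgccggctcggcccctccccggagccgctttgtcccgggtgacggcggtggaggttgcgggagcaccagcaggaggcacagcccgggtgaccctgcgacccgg
The start used for Rcan1 lies 69.8 kb inside the outer end of the annotated gene, so this is an internal promoter, whereas that of Rcan2 lies 2.04 kb inside. Counted from the 5′ end, the Rcan1 window held 2 NFAT cores, at positions 26 to 30 and 56 to 60. Between them, at positions 44 to 51, stood TGACGTCA, the cyclic AMP response element, which reads the same on both strands. The TATA box TATAAA stood at positions 193 to 198, overlapping a copy on the other strand. The Rcan2 window held none of these motifs. Neither window, nor those of the 3 subunit genes, held AGGTCA or TGACCT, the half-site of thyroid hormone receptors, and Ppp3cb and Ppp3r1 held 1 NFAT core each. Over 33469 rat promoter windows of this length, searched on both strands, 62.7% held at least 1 NFAT core and 28.5% held 2 or more, 16.2% held the receptor half-site, 1.83% the cyclic AMP response element and 14.2% the TATA box. These are matches of letters in short windows.

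Array values are linear intensities. Trimmed by 2% at each end, every array had a mean of 150. Myh4, the heavy chain of the fastest fibres, marked the samples as fast muscle, at 23971 to 33046 on hyperthyroid and 26855 to 36144 on control arrays. No marker of cardiac muscle passed the filter (0 of 3), and 2 of 7 T cell markers did; calcineurin and NFAT also act in T cells. The 7 T cell markers summed to between 107 and 179 on hyperthyroid and between 53.3 and 256 on control arrays. Control arrays 7 and 11 stood apart from the other arrays in slow-fibre transcripts. The mean log2 level of 10 slow-fibre contractile genes, relative to each gene's mean over the 8 arrays, was -0.16, -0.34, -1.59 and -2.70 on hyperthyroid arrays 1, 2, 3 and 5, against 2.99, -0.46, -0.17 and 2.43 on control arrays 7, 8, 9 and 11. The same control arrays had the highest sums of 4 Schwann cell markers, which were 608 to 1110 on hyperthyroid arrays, against 3060 and 2103 on control arrays 7 and 11 and 326 and 466 on control arrays 8 and 9. Most of these sums came from Pmp22, a myelin protein gene also expressed outside nerve, at 2537 and 1916 on control arrays 7 and 11. The myelin gene Mbp stood at 387, 32.0, 6.94 and 113 on control arrays 7, 8, 9 and 11, against 46.1 to 165 on hyperthyroid arrays. S100b stood at 133, 18.2, 68.8 and 69.0 on the same control arrays, against 17.2 to 129 on hyperthyroid arrays. Sox10, also on the Schwann cell list, was under the filter. Smooth muscle markers summed to 711 to 833 on hyperthyroid arrays and to 1454, 840, 865 and 1193 on control arrays 7, 8, 9 and 11. Summed markers of the other cell types overlapped between groups: macrophage 415 to 1197 in hyperthyroid and 431 to 1178 in control muscle, endothelial 614 to 1055 and 736 to 924, adipocyte 1191 to 2581 and 1169 to 2250, fibroblast 3738 to 19972 and 2186 to 16644, and cardiac 37.8 to 80.3 and 44.1 to 126. The part of other cells in the results was not tested. Several differences that moved without control arrays 7 and 11 are given with and without them. Those arrays were singled out by their slow-fibre values in these same data. In whole muscle, fewer cells of a type and less RNA per cell cannot be told apart.

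No probe set of these genes passed the test. Differences are hyperthyroid minus control on the log2 scale, fitted with limma over all 18625 kept probe sets and called at a Benjamini-Hochberg adjusted p under 0.05. Of the 15 kept probe sets 0 were called, against 6 of all kept probe sets (0.0322%), all 6 of them higher in hyperthyroid muscle. An unadjusted p under 0.05 was reached by 0 of the 15 and by 9.68% of all. The 4 hyperthyroid and 4 control arrays did not overlap for 1 of the 15, a probe set of Rcan2, and for 6.15% of all. Log2 differences ran from -0.80 (Rcan1) to 0.81 (a probe set of Ppp3r1), 8 above 0 and 7 below, with a median of 0.11 against -0.0077 over all kept probe sets. Without control arrays 7 and 11, 4 lay above 0 and 11 below, with a median of -0.15 against -0.0083 over all. The limma adjusted p of the 15 ran from 0.517 to 0.9699. The median size of the difference, whatever its sign, was 0.16 for the 15 and 0.27 for all kept probe sets.

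**Figure D1:**
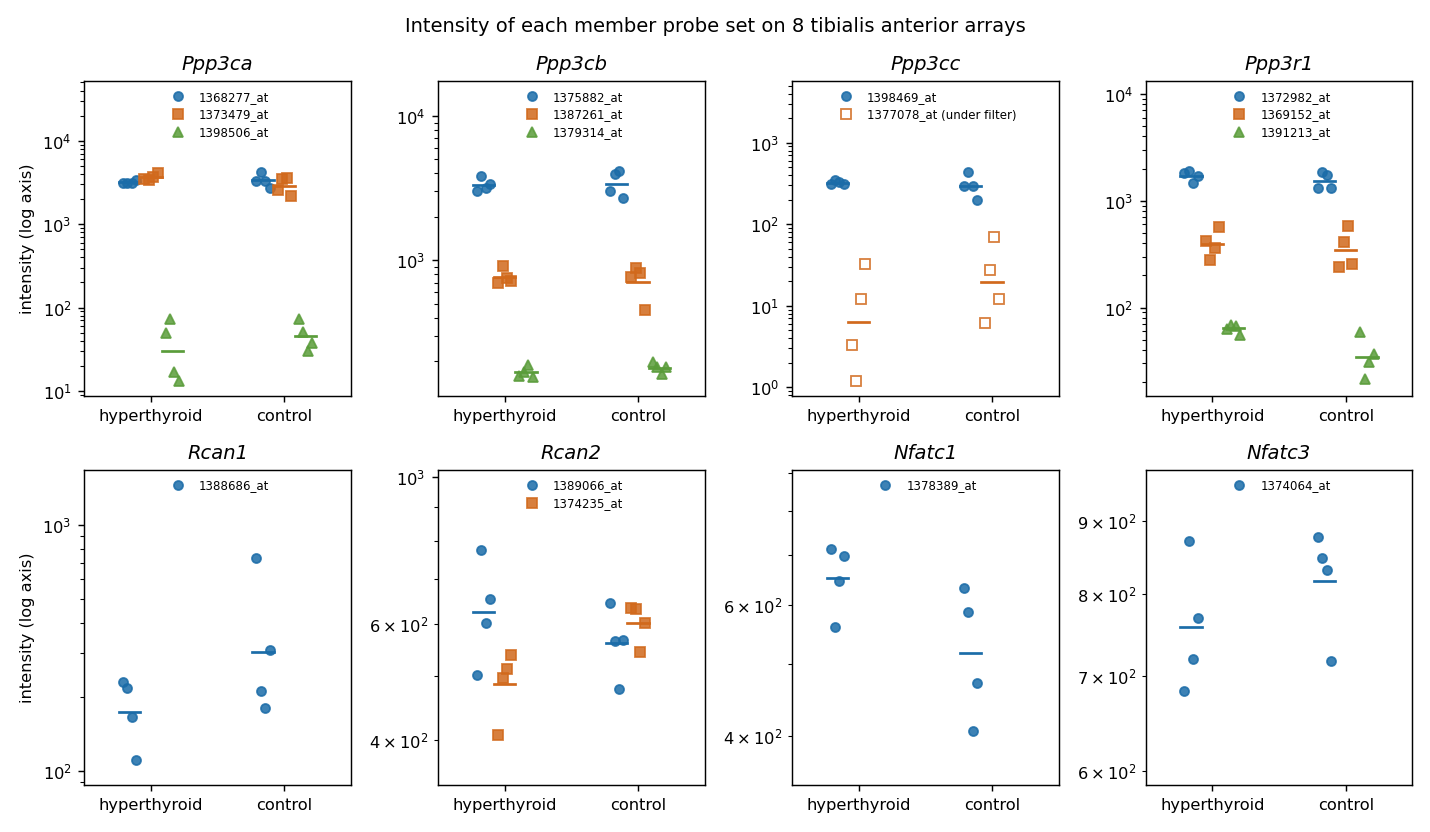
Intensity (log axis) of the 16 probe sets on the 4 hyperthyroid and 4 control arrays, 1 panel per gene. Points are arrays, colours and symbols are probe sets, bars are geometric means and open symbols mark the probe set under the filter. The groups overlap for every probe set except 1374235_at of Rcan2.

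The catalytic subunit Ppp3ca, the alpha form, gave steady signal on hyperthyroid arrays. Its leading probe set, 1368277_at, stood at 3120, 3156, 3089 and 3426 on hyperthyroid arrays 1, 2, 3 and 5, against 3333, 4236, 3308 and 2722 on control arrays 7, 8, 9 and 11. The hyperthyroid arrays lay within the range of the controls, and the means were 3198 ± 155 and 3400 ± 625 (SD, n = 4 each). The log2 difference was -0.07 ± 0.14 (SE), with a 95% interval from -0.37 to 0.23, or 0.77-fold to 1.17-fold (limma adjusted p = 0.907). A second probe set, 1373479_at, stood at 3518, 3420, 3701 and 4121 on the same hyperthyroid arrays, against 2552, 3523, 3596 and 2158 on the controls. Its means were 3690 ± 310 and 2958 ± 714, a difference of 0.35 ± 0.17 with an interval from -0.0065 to 0.70 (limma adjusted p = 0.525). Only control arrays 7 and 11 lay below the lowest hyperthyroid array, and without both of them the difference was 0.05 ± 0.14. The third, 1398506_at, was dim and scattered, at 13.3 to 73.1 on hyperthyroid and 30.0 to 72.5 on control arrays, and differed by -0.51 ± 0.56 (limma adjusted p = 0.803). The 3 probe sets of the gene thus pointed both ways.

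On all 8 arrays Ppp3cb, the beta form of the catalytic subunit, did not differ beyond its spread on any of its 3 probe sets. The leading one, 1375882_at, stood at 3013, 3814, 3179 and 3384 on hyperthyroid arrays 1, 2, 3 and 5, against 3020, 3936, 4171 and 2707 on control arrays 7, 8, 9 and 11. The highest and the lowest array were both controls, and the difference was -0.03 ± 0.15 (interval -0.36 to 0.30, limma adjusted p = 0.9699). Without control arrays 7 and 11 it was -0.28 ± 0.14 (limma adjusted p = 0.619). Probe set 1387261_at averaged 768 ± 95.9 in hyperthyroid and 728 ± 190 in control muscle (SD, n = 4 each), a difference of 0.11 ± 0.20. Its lowest array was control array 11, at 454 against 761 to 886 on the other controls, and without control arrays 7 and 11 the difference was -0.15 ± 0.17. Probe set 1379314_at had one of the smallest spreads of the array, 154 to 186 on hyperthyroid and 162 to 195 on control arrays. Its residual SD of 0.11 log2 units lay at percentile 1.53 of all kept probe sets, and its difference was -0.11 ± 0.19.

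Ppp3cc, the gamma form, best known from testis, was measured by 1 kept probe set. This one, 1398469_at, stood at 309, 346, 327 and 308 on hyperthyroid arrays 1, 2, 3 and 5, against 294, 438, 298 and 200.4 on control arrays 7, 8, 9 and 11. The hyperthyroid arrays kept within a narrow band inside the range of the controls. The difference was 0.12 ± 0.22 (interval -0.34 to 0.58, limma adjusted p = 0.895), and without control arrays 7 and 11 it was -0.16 ± 0.21. Probe set 1377078_at, under the filter, ran from 1.21 to 33.0 on hyperthyroid and from 6.14 to 69.2 on control arrays, with means of 12.4 ± 14.5 and 28.8 ± 28.4, and was not tested in the main comparison.

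The regulatory B subunit Ppp3r1, which binds calcium and is needed for the phosphatase to work, gave 3 kept probe sets, all with a difference above 0. The leading one, 1372982_at, stood at 1825, 1879, 1457 and 1720 on hyperthyroid arrays 1, 2, 3 and 5, against 1313, 1869, 1729 and 1314 on control arrays 7, 8, 9 and 11. Control arrays 7 and 11 were its 2 lowest arrays. The difference was 0.16 ± 0.15 (interval -0.17 to 0.48, limma adjusted p = 0.774), and without those arrays it was -0.07 ± 0.15. Probe set 1369152_at averaged 408 ± 121 in hyperthyroid and 372 ± 157 in control muscle and differed by 0.18 ± 0.28. It too was lowest on control arrays 7 and 11, and without control array 7 its difference was -0.00038, without both -0.30 ± 0.27. The dim probe set 1391213_at behaved otherwise, at 63.0, 69.3, 67.6 and 55.8 on hyperthyroid arrays 1, 2, 3 and 5, against 59.3, 21.3, 30.8 and 37.0 on control arrays 7, 8, 9 and 11. Only control array 7 reached into the hyperthyroid range. The difference was 0.81 ± 0.39, or 1.76-fold with an interval from 0.98-fold to 3.15-fold (limma adjusted p = 0.532), and 1.21 ± 0.42 without control arrays 7 and 11 (limma adjusted p = 0.473).

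Across the 10 kept probe sets of the 4 subunit genes, control array 7 or 11 was the lowest of the 8 arrays for 7, and these arrays were the 2 lowest for 4. The mean log2 level of the 10, relative to each probe set's mean over arrays, was 0.08, 0.19, -0.05 and -0.02 on hyperthyroid arrays 1, 2, 3 and 5, against -0.0057, 0.13, 0.03 and -0.36 on control arrays 7, 8, 9 and 11. Control array 11 was thus the array farthest from the others. The within-group SD of the log2 values was smaller on hyperthyroid than on control arrays for 8 of the 10 subunit probe sets, with medians of 0.14 and 0.40, as it was for 59.7% of all kept probe sets. Control array 11 also had the highest median intensity of all arrays, 54.9 against 38.8 to 46.7 on the other 7, and its part in these values was not tested.

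Rcan1, the calcipressin induced by calcineurin signalling, had the lowest log2 difference of the 15 and the smallest p among them. Its 1 probe set, 1388686_at, stood at 229, 217, 166 and 111 on hyperthyroid arrays 1, 2, 3 and 5, against 735, 212, 180 and 309 on control arrays 7, 8, 9 and 11. Control arrays 7 and 11 lay above all hyperthyroid arrays, while control arrays 8 and 9 lay among them. The means were 181 ± 54.3 and 359 ± 257 (SD, n = 4 each), and the log2 difference was -0.80 ± 0.37, or 0.57-fold with an interval from 0.33-fold to 1.00-fold. It was not called (limma adjusted p = 0.517). Without control array 7 the difference was -0.38 ± 0.29 (limma adjusted p = 0.715), and without control arrays 7 and 11 it was -0.16 ± 0.30 (limma adjusted p = 0.891). As these are its 2 highest arrays, leaving them out had to raise the difference. Without control array 8 it was -0.97 ± 0.40, and without control array 9 -1.05 ± 0.37 (limma adjusted p = 0.485 and 0.343). It stayed below 0 over 21 alternatives, of which 8 gave an unadjusted limma p under 0.05. Rcan1 was also among the more variable probe sets, its residual SD of 0.72 lying at percentile 73.9 of all kept probe sets.

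The arrays ranked alike in Rcan1 and in slow-fibre transcripts at both ends of the range. Relative to its mean over arrays, Rcan1 stood at 1.66 and 0.42 on control arrays 7 and 11, which had the highest slow-fibre levels, and at -0.47 and -1.04 on hyperthyroid arrays 3 and 5, which had the lowest. The other 4 arrays, hyperthyroid arrays 1 and 2 and control arrays 8 and 9, lay between -0.35 and -0.0081 for Rcan1 and between -0.46 and -0.16 for the slow-fibre genes. Since control arrays 7 and 11 form a cluster of their own, no correlation over the 8 arrays is given for this comparison. Among those slow-fibre genes, Myh7, the slow myosin heavy chain, was at 169, 45.2, 5.96 and 5.83 on hyperthyroid arrays 1, 2, 3 and 5, against 5570, 56.0, 163 and 2692 on control arrays 7, 8, 9 and 11. The calcineurin subunits had no such order.

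**Figure D2:**
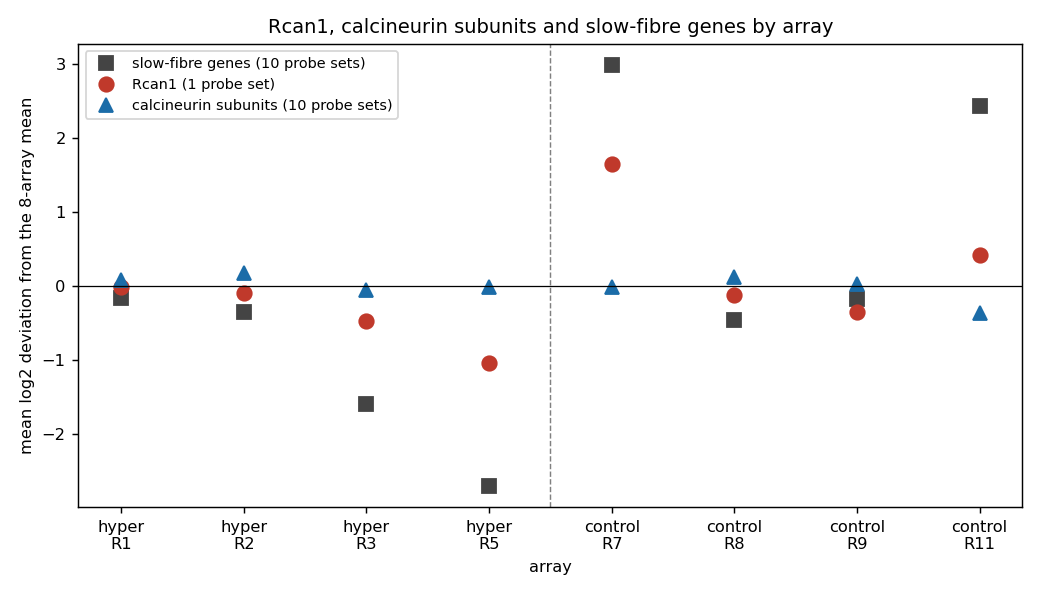
Mean log2 deviation from the 8-array mean for 10 slow-fibre genes, for the Rcan1 probe set and for the 10 kept probe sets of the calcineurin subunits, 1 column per array, with hyperthyroid arrays left of the dashed line. Rcan1 and the slow-fibre genes are highest on control array 7 (1.66 and 2.99) and lowest on hyperthyroid array 5 (-1.04 and -2.70), and the subunits stay between -0.36 and 0.19.

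The 3 named genes whose log2 values over the 8 arrays were most like those of Rcan1, by Pearson correlation over all kept probe sets with 1 symbol, were Smtnl1 (r = 0.97), Fhl1 (r = 0.94) and Rogdi (r = 0.94). The points of these correlations share arrays and include the high control arrays 7 and 11. Smtnl1, a smoothelin-like protein of muscle, was at 794, 831, 491 and 328 on hyperthyroid arrays 1, 2, 3 and 5, against 3381, 723, 529 and 1793 on control arrays 7, 8, 9 and 11. Fhl1, a LIM-domain protein of striated muscle, averaged 7468 ± 2619 in hyperthyroid and 12814 ± 7825 in control muscle (SD, n = 4 each). Log2 differences were -1.11 ± 0.47 for Smtnl1, -0.67 ± 0.38 for Fhl1 and -0.50 ± 0.25 for Rogdi, and without control arrays 7 and 11 they were -0.11 ± 0.33, 0.06 ± 0.32 and -0.27 ± 0.29. Like Rcan1, these genes were highest on control arrays 7 and 11, so leaving those arrays out had to raise their differences. For all 3 genes the groups overlapped, and none was called.

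Rcan2, the calcipressin first found as a T3-responsive transcript, gave 2 kept probe sets that differed in sign. The leading one, 1389066_at, stood at 502, 774, 600.2 and 653 on hyperthyroid arrays 1, 2, 3 and 5, against 644, 565, 477 and 566 on control arrays 7, 8, 9 and 11. The groups overlapped, and the difference was 0.16 ± 0.17 (interval -0.20 to 0.52, limma adjusted p = 0.794). The second, 1374235_at, stood at 406, 497, 513 and 539 on the same hyperthyroid arrays, against 634, 631, 544 and 601 on the controls. Here all 4 hyperthyroid arrays lay below all 4 controls, by a margin of 539 against 544 between the nearest arrays. The means were 489 ± 57.5 and 602 ± 41.6 (SD, n = 4 each), and the difference was -0.30 ± 0.15, or 0.81-fold with an interval from 0.65-fold to 1.01-fold (limma adjusted p = 0.536). It was -0.27 ± 0.18 without control arrays 7 and 11, and 0.01 ± 0.19 when the arrays were scaled to their hybridization controls. The leading probe set differed by 0.27 ± 0.20 without those control arrays, by 0.38 ± 0.19 with arrays centred on their medians and by 0.48 ± 0.19 with hybridization controls (limma adjusted p = 0.197). With both probe sets averaged, Rcan2 differed by -0.07 ± 0.15.

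Nfatc1, an NFAT factor tied to slow-fibre genes in rodents, had 1 probe set, 1378389_at. It stood at 713, 560, 646 and 697 on hyperthyroid arrays 1, 2, 3 and 5, against 631, 587, 407 and 471 on control arrays 7, 8, 9 and 11. Of the hyperthyroid arrays 3 lay above all controls, and hyperthyroid array 2 lay below control arrays 7 and 8. The means were 654 ± 68.5 and 524 ± 103 (SD, n = 4 each), and the difference was 0.33 ± 0.17, or 1.26-fold with an interval from 0.98-fold to 1.62-fold (limma adjusted p = 0.559). Unlike Rcan1, Nfatc1 was not highest on control arrays 7 and 11, and without them the difference was 0.41 ± 0.20 (limma adjusted p = 0.592).

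Nfatc3, another calcium-regulated NFAT factor of muscle, also had 1 probe set, 1374064_at. It stood at 683, 872, 719 and 769 on hyperthyroid arrays 1, 2, 3 and 5, against 878, 848, 831 and 718 on control arrays 7, 8, 9 and 11. The groups overlapped, with control array 11 below 3 of the hyperthyroid arrays. The difference was -0.11 ± 0.14 (interval -0.41 to 0.20, limma adjusted p = 0.837), and its residual SD of 0.14 lay at percentile 3.62 of all kept probe sets.

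**Figure D3:**
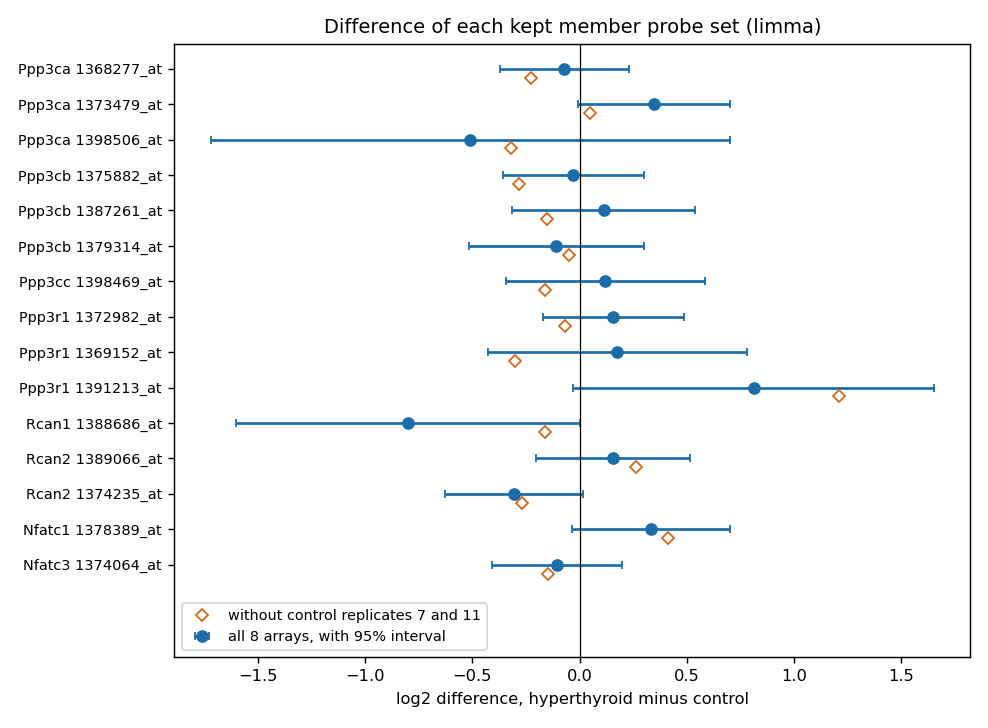
Log2 difference, hyperthyroid minus control, of the 15 kept probe sets with its 95% interval (filled points and bars, limma on all 8 arrays) and the same difference without control arrays 7 and 11 (open diamonds). All 15 intervals include 0, and Rcan1, at -0.80, lies at -0.16 when those arrays are left out. Control arrays 7 and 11 are the highest for Rcan1, so leaving them out had to raise its difference.

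Direction depended on scaling for several probe sets. Relative to the main scaling, the median of all kept probe sets shifted by 0.22 when arrays were centred on their medians and by 0.31 when they were scaled to 18 hybridization control probe sets. Of the 15 probe sets 12 then lay above 0 and 3 below with centring, and 13 above and 2 below with hybridization controls. An unadjusted p under 0.05 was reached by 3 of the 15 against 13.7% of all with centring, by 5 against 18.1% with hybridization controls and by 4 against 9.17% with quantile normalization. None was called under these scalings, where 19, 118 and 7 of all kept probe sets were called, all of them higher in hyperthyroid muscle. Rcan1 stood at -0.58 and -0.48 under these scalings, and Nfatc1 at 0.55 and 0.65 (limma adjusted p = 0.267 and 0.151). The leading probe sets of Ppp3ca, Ppp3cb and Nfatc3 turned above 0 under both scalings and stood at 0.15, 0.19 and 0.11 with centring and at 0.25, 0.29 and 0.21 with hybridization controls, below the shift of all probe sets. The probe set 1374235_at of Rcan2, at -0.30 in the main scaling, also turned above 0 with hybridization controls.

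Other genes of the pathway were read from lists, each gene by its kept probe set with the highest mean. None of them passed the test. Of 9 measured partners and inhibitors of calcineurin, 3 had a log2 difference above 0 and 6 below, with a median of -0.16. Lmcd1, a LIM-domain protein that augments calcineurin signalling in the mouse heart, averaged 289 ± 133 in hyperthyroid and 886 ± 685 in control muscle (SD, n = 4 each). It was highest on control arrays 7 and 11, at 1869 and 818, and differed by -1.46 ± 0.46 (limma adjusted p = 0.354) and by -0.68 ± 0.42 without them. The calsarcins, Z-disc proteins that bind and restrain calcineurin, include the fast-fibre Myoz1 and the slow-fibre and cardiac Myoz2. Myoz2 was at 647, 989, 725 and 24.0 on hyperthyroid arrays 1, 2, 3 and 5, against 6430, 599, 270 and 3289 on control arrays 7, 8, 9 and 11. It differed by -2.02 ± 1.07, and by -0.27 ± 1.11 without control arrays 7 and 11. Myoz1 differed by -0.33 ± 0.15 (limma adjusted p = 0.499), and by -0.54 ± 0.15 without those arrays. Fkbp1a, the FK506-binding protein, differed by -0.16 ± 0.13 on its leading probe set and by 0.03 and 0.31 on the others, the last with an unadjusted p of 0.0305.

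Of 10 measured genes on a list of NFAT factors, NFAT kinases and Homer2, 5 differed above 0 and 5 below, with a median of 0.14. Csnk1a1, a casein kinase that phosphorylates NFAT, stood at 1938, 1831, 1801 and 1828 on hyperthyroid arrays 1, 2, 3 and 5, against 1581, 1385, 1457 and 1414 on control arrays 7, 8, 9 and 11. All hyperthyroid arrays lay above all controls for this probe set, which differed by 0.34 ± 0.12 (limma adjusted p = 0.379), but the 2 other kept probe sets of the gene gave -0.12 and -0.18. Dyrk2, another NFAT kinase, differed by 0.35 ± 0.16 (limma adjusted p = 0.517), and its 3 other kept probe sets gave 0.36, 0.46 and 0.05. Nfatc2, a further NFAT factor, differed by 0.29 ± 0.24, and Mapk8, the stress kinase JNK1, by -0.18 ± 0.17. Their other kept probe sets pointed the other way, with -1.45 ± 0.81 for a dim one of Nfatc2 and 0.11 and 0.16 for Mapk8.

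Of 7 measured genes of calcium entry and release, 3 differed above 0 and 4 below, with a median of -0.12. Orai1, the store-operated calcium channel, differed by -0.31 ± 0.19 and its sensor Stim1 by -0.19 ± 0.13, whose other kept probe sets gave 0.41 and -1.39, the lower one with an unadjusted p of 0.0161. Ryr1, the release channel, differed by 0.32 ± 0.21, and Cacna1s, the voltage sensor, by 0.14 ± 0.18. Without control arrays 7 and 11, Ryr1, Cacna1s and Orai1 stood at 0.04 ± 0.20, -0.14 ± 0.15 and -0.48 ± 0.22. A list of calmodulin-dependent kinases, class II histone deacetylases, MEF2 factors and the coactivator Ppargc1a holds genes that act beside calcineurin on slow-fibre genes. Of its 10 measured genes, 7 differed above 0 and 3 below, with a median of 0.15. Hdac5, a deacetylase that represses MEF2, differed by -0.60 ± 0.31, Camk2g by 0.42 ± 0.23, Mef2c by 0.29 ± 0.17 and Camk2a by 0.31 ± 0.20. Without control arrays 7 and 11 these stood at -0.41 ± 0.39, 0.42 ± 0.29, 0.05 ± 0.17 and 0.43 ± 0.24. On all 8 arrays none of these leading probe sets reached an unadjusted p under 0.05. The other kept probe set of Camk2g, a dim one, gave -0.99 ± 0.69, and those of Camk2a gave 0.65, 0.64 and 0.12. Another probe set of Mef2c, a MEF2 factor that drives muscle genes, averaged 3210 ± 754 in hyperthyroid and 1628 ± 624 in control muscle (SD, n = 4 each). It differed by 1.03 ± 0.24 (limma adjusted p = 0.214), and by 0.95 ± 0.28 without control arrays 7 and 11 (limma adjusted p = 0.415). The 10 slow-fibre contractile genes all differed below 0, with a median of -2.71, and 8 of them reached an unadjusted p under 0.05. Without control arrays 7 and 11 their median was -1.02, and 0 reached an unadjusted p under 0.05. Of the 10, 9 were then below 0 and 1, Casq2, the slow-fibre calsequestrin, was above it at 0.26 ± 0.28. A dimmer kept probe set of Casq2 pointed the other way, at -0.58 ± 0.41 without those arrays and -1.50 ± 0.47 on all 8. Besides Myh7, the slow troponins Tnnc1, Tnni1 and Tnnt1 differed by -3.27 ± 0.94, -2.72 ± 0.83 and -4.07 ± 1.32, and by -1.26 ± 0.74, -0.78 ± 0.49 and -1.29 ± 1.40 without those control arrays. The leading probe set of Myh7 differed by -4.41 ± 1.25, and by -1.77 ± 1.05 without control arrays 7 and 11. Of 11 measured fast-fibre genes 2 differed above 0 and 9 below, with a median of -0.39, and 6 reached an unadjusted p under 0.05. Among these were Acta1, skeletal actin, at -0.58 ± 0.13 (limma adjusted p = 0.214), the fast troponins Tnnc2 and Tnnt3 at -0.50 ± 0.12 and -0.41 ± 0.13, and the calcium pump Atp2a1 at -0.39 ± 0.13. A dimmer kept probe set of Tnnt3 gave 0.29 ± 0.16. Without control arrays 7 and 11 all 11 fast-fibre genes were below 0, with a median of -0.47, and 6 reached an unadjusted p under 0.05. The abundant fast-fibre transcripts lie beside a difference in the share of signal in the 100 brightest probe sets, which was 22.4% to 25.1% on hyperthyroid and 26.4% to 28.4% on control arrays.

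**Figure D4:**
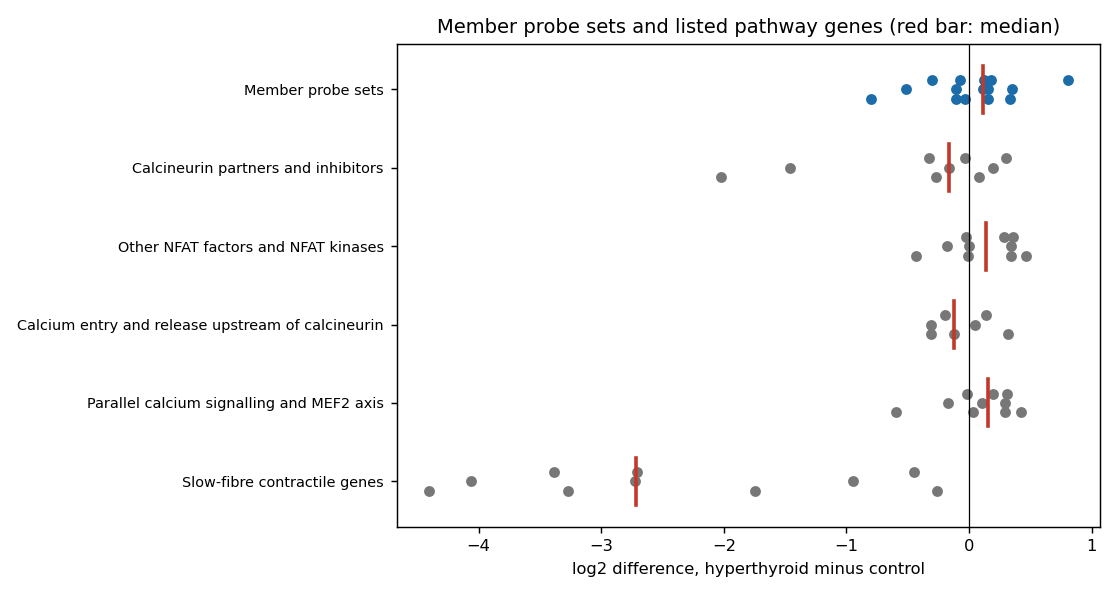
Log2 differences, hyperthyroid minus control, of the 15 kept probe sets and of the measured genes of 5 pathway lists, 1 point per probe set or gene, with the median of each as a red bar. The slow-fibre genes lie farthest below 0 (median -2.71), Myoz2 (-2.02) and Lmcd1 (-1.46) are the lowest of the calcineurin partners, and the other lists centre between -0.16 and 0.15.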

How the data were processed

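Biotin-labelled RNA from 8 rat tibialis anterior muscles, 4 hyperthyroid and 4 control, was hybridised to Affymetrix arrays. The authors deposited linear intensities from GCOS, per the submitters' processing notes, without a version or settings in the sources used here. From their trimmed means they are scaled to 1 target, which hides differences in total RNA. Depth is that of the arrays, so the number of arrays limits precision. Nothing in the labels ties arrays to batches, and the groups share no replicate number.

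Of 31099 probe sets, 57 controls were left out. Platform annotation gave 1 gene symbol for 20826 probe sets, several for 436 and none for 9780, and all 8 member symbols matched RefSeq through Entrez identifiers. Values were taken as log2(intensity + 3.41), the 10th percentile of all values being added. Log2 differences refer to this shifted scale, which compresses dim probe sets. Probe sets with a mean log2 level above the 40th percentile, 4.69 (an intensity of about 22.4), were kept and tested with limma 3.58.1 in R 4.3.3 (eBayes, variance trended on level, 7.74 prior degrees of freedom, two-sided, Benjamini-Hochberg adjustment). The fit was tested on simulated data. Alternatives changed the scaling, pseudocount, filter, variance model, array weights, summary of probe sets, threshold and arrays. Likeness is Pearson's r.

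Members, gene lists and tests were chosen with earlier results of these data known. A gene's leading probe set is its kept one with the highest mean. Named genes are all members, the up to 4 genes of each list with the smallest unadjusted p, and the 3 most like the member probe set with the smallest p. Myh4, Casq2 and the Schwann cell markers were named after their values were seen. Calm3, Ppia, Chp1, Akap5, Ppp3r2, Dyrk1b, Trpc1, Trpc6, Camk4, Prkd1, Hdac9 and Mylpf were among the listed genes that had no kept probe set with 1 symbol.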

Additional observations from a re-analysis of the deposited data

Results flagged for a closer look

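The values of the 16 probe sets were examined for single arrays that stood apart within their group of 4, on the log2 scale and by Dixon's ratio at its 95% level. Of the 32 groups examined 0 held such an array, where chance flags about 1 in 20.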

How the results depend on the processing

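No paired analysis was possible because the groups share no replicate number. No member probe set passed the test under any of 22 alternatives, and the smallest adjusted p among them was 0.132 (1373479_at of Ppp3ca, scaled to hybridization controls). An unadjusted p under 0.05 was reached by 0 to 5 of the members, 5 with hybridization controls. Of 299 recomputed log2 differences 277 kept their direction. The listed genes passed in 0 cases, except 1 with a robust variance, Acta1 (adjusted p = 0.0477), in the fast-fibre list. Of all kept probe sets, 6 passed in the main setting and between 0 and 118 under the alternatives, 0 without a variance trend, without hyperthyroid array 3 and without control array 7. The larger counts were 118 with hybridization controls, 22 with robust variance, 19 with centring, 16 without a filter and 10 with array weights. Leading probe sets are meant unless numbered. Centring gave 0.15 for Ppp3ca, 0.19 for Ppp3cb, 0.11 for 1379314_at and 0.11 for Nfatc3. Hybridization controls gave 0.25, 0.29, 0.21 and 0.21 for the same, and 0.014 for 1374235_at of Rcan2. Averaging all probe sets of a gene, also those under the filter, gave -0.47 for Ppp3cc and -0.074 for Rcan2. The Ppp3cc average includes 1377078_at, the probe set under the filter, which was at -1.07. Without control arrays 7 and 11, 1387261_at of Ppp3cb was at -0.15, Ppp3cc at -0.16, Ppp3r1 at -0.070 and 1369152_at at -0.30. Leaving out single arrays gave -0.17 to 0.040 for Ppp3ca, -0.14 to 0.068 for Ppp3cb, -0.10 to 0.22 for 1387261_at, -0.065 to 0.31 for Ppp3cc and -0.00038 to 0.42 for 1369152_at. The cause was not tested.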
